A study of Drosophila melanogaster with 54 samples.

Results

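The cytoplasmic ribosomal protein genes of Drosophila melanogaster were followed across embryonic stages, sexes and depletion of the acetyltransferase gene mof. They were taken from the gene tables by name: a FlyBase symbol that begins RpL or RpS followed by a digit, or RpLP, or is sta, which leaves out the mitochondrial ribosomal protein genes and the S6 kinases. The rule gave 93 genes of the 17558 in each table. Of these, 49 encode proteins of the large subunit or their close relatives, 38 those of the small subunit, 4 carry the names of the stalk proteins of the large subunit, and 2, RpL40 and RpS27A, are fusions of ubiquitin with a ribosomal protein. On the genome build dm6, 15 members lie on chromosome X and 78 on autosomes, with 19 on 2L, 21 on 2R, 14 on 3L, 23 on 3R and 1, RpS3A, on chromosome 4. The St5 table held all 93. The tables of St7, St15 and S2 cells held 88 by gene identifier, and RpS10b, RpL27A, RpL31, RpL19 and RpS12 were not analysed there. After the filter on low counts, 89 members of the St5 table were tested, 82 of the St7 table, 84 of the St15 table and 81 of the S2 table. Paralogs with few or no counts were among those below it: RpL7-like, RpS28-like and RpS28a in every table, with RpS10a at St5 and St7, RpL10Aa at St7, St15 and in S2 cells, RpL22-like at St7 and in S2 cells, and RpL37-2 in S2 cells.

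A ribosome needs most of its proteins in equal amounts, and in flies loss of a single copy of many of these genes gives the Minute phenotype of slow growth and short bristles. Their mRNAs are supplied to the egg by the mother and are among the most abundant in the embryo. Males have a single X chromosome and raise transcription from it through the MSL complex, in which MOF acetylates histone H4 and the roX RNAs take part, so X-linked and autosomal members of one particle stand under different controls in males.

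PolyA RNA of 54 libraries in 14 groups was sequenced and counted per gene. Embryos with lowered mof came from mothers that carried the maternal driver mat-a-tubGal4 and a mof RNA interference stock and were crossed to their siblings, and control embryos from mothers with the same driver and a control RNA interference stock. The driver acts in the maternal germ line, so it is the egg's supply that is targeted. St5 (blastoderm) and St7 (gastrulating) libraries were single embryos whose sex was read after sequencing from msl-2, sxl, tra and tra2. St15 libraries were pools of 25 embryos aged 14 to 16 h in a Sxl-GFP background, with GFP negative embryos taken as males and GFP positive ones as females. S2 (Dmel-2) cells, a cultured line of embryonic, hemocyte-like origin, received 10 ug of dsRNA against mof or against GFP for 3 days at 25 °C, and nothing states that the 3 libraries of each kind were separate cultures, so p-values there measure the spread between those libraries. St5 comprised 4 mof RNAi males, 4 control males, 2 mof RNAi females and 2 control females. St7 comprised 6 mof RNAi males, 7 control males, 4 mof RNAi females and 6 control females. St15 comprised 3 mof RNAi males, 3 control males, 4 mof RNAi females and 3 control females.

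Library totals were 28278799 to 41513416 counts at St5, 5504650 to 10024836 at St7, 19018190 to 38076982 at St15 and 20487339 to 38772186 in S2 cells. mof was lower in mof RNAi than in control embryos of every stage and sex (log2 fold changes -9.07 to -1.65, edgeR; the call in St7 females was lost without mof RNAi female 1), whereas in S2 cells it averaged 61.4 ± 12.4 scaled CPM in the libraries labelled mof dsRNA and 69.3 ± 2.56 in those labelled GFP dsRNA (adjusted p = 0.491, edgeR quasi-likelihood test). The roX2 RNA was lower in those mof dsRNA libraries (-1.03). Some libraries went against their labels. St5 mof RNAi males 1 and 2 held 3 and 0 counts on Y-linked genes, against 198 to 383 in the other St5 males. St5 mof RNAi female 2, St5 control female 1 and St15 mof RNAi female 3 held 52, 40 and 40, where the other females of those stages held 1 to 6. The genotype text of the St5 control females names the mof stock and that of the St15 mof RNAi libraries says control, and titles were followed. At St15, mof RNAi male 1 and control male 2 carried the egg RNAs bcd (17.2 and 20.3 scaled CPM) and swa (13.8 and 13.2), which were under 0.5 in the other 11 St15 libraries. Tissue markers were detected where the labels place them: the muscle gene Mhc averaged 6852 to 8539 scaled CPM over the St15 groups, and the hemocyte genes Hml and crq 169.9 and 319 in S2 libraries labelled mof dsRNA and 139 and 339 in those labelled GFP dsRNA.

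Ribosomal protein mRNAs made up a large part of every library. At St5 they took 25.4, 25.5, 24.5 and 23.0% of all counts in mof RNAi males, 23.2, 20.5, 24.3 and 16.2% in control males, 17.2 and 20.8% in mof RNAi females and 11.0 and 12.6% in control females. The St5 control females were lowest, and the St5 males of both kinds overlapped. The means of the 4 groups lay between 9.17% and 9.82% at St7, and at St15 the libraries lay between 10.9% and 12.9%. In S2 cells the share was 7.34 ± 0.243% in libraries labelled mof dsRNA and 7.06 ± 0.389% in those labelled GFP dsRNA (mean ± SD, n = 3 each). Only at St5 did the libraries of 2 compared groups stand apart: mof RNAi females above control females, and control males above control females. Stage and table cannot be told apart, so levels at different stages are set side by side with no test, and in whole embryos fewer cells and less RNA per cell cannot be told apart.

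**Figure D1:**
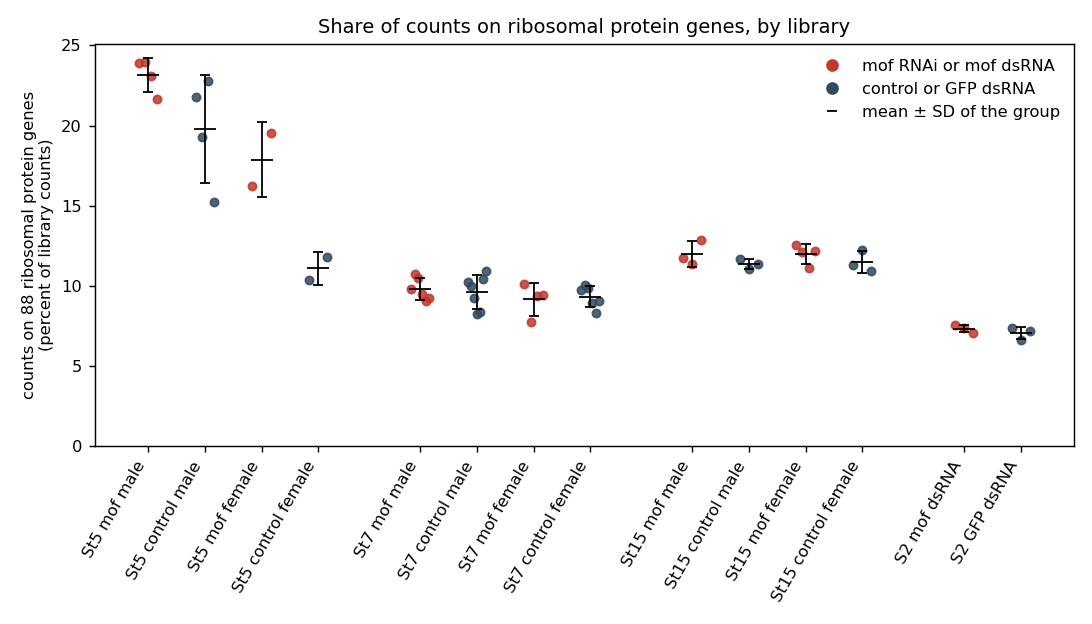
Percent of each library's counts on the 88 ribosomal protein genes present in all tables (vertical axis, from 0), by group, with mof RNAi or mof dsRNA left of its control; points are libraries and bars are the mean ± SD. The St5 control females, at 10.4% and 11.8%, lie below the other St5 libraries, while the groups of each later stage overlap.

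Per kb of exon, the members with at least 10 scaled CPM spread widely. In St15 control males their median was 1594 scaled CPM per kb, with the quartiles at 1068 and 1895. The highest was RpL41, which encodes the smallest ribosomal protein, at 5740.1, and the lowest was RpLP0-like, at 48.9. They overlap the coding genes NaCP60E and Jra. The median of X-linked members lay below that of autosomal members in each of the 14 groups. It was 993 against 1865 scaled CPM per kb in St15 mof RNAi males, 1075 against 1671 in St15 control males, 1284 against 1888 in St15 mof RNAi females and 1172 against 1697 in St15 control females. In S2 cells these medians were 774 against 960.3 in libraries labelled mof dsRNA and 808 against 901 in those labelled GFP dsRNA.

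In St15 males, X-linked and autosomal ribosomal protein genes differed in the sign of their log2 fold changes under mof RNAi. Of all genes tested, 10.1% of X-linked and 60.8% of autosomal ones had values above 0. All 14 X-linked members had values below 0, and 65 of 70 autosomal members had values above 0, a count also seen in St15 females. Fewer passed the test: 9 of the 14 X-linked members passed, each lower in mof RNAi males, and of the 70 autosomal members 9 rose and 0 fell (edgeR quasi-likelihood test, adjusted p under 0.05 over all genes of the table). By unadjusted p under 0.05, 10 of 14 X-linked and 24 of 70 autosomal members passed, beside 1217 of 1696 X-linked and 3321 of 8767 autosomal genes. DESeq2 called 9 X-linked members lower and 18 of 71 autosomal members higher. Shares over all genes are given for the main fit only. The number of autosomal members risen moved with the fit: it was 17 with TMM scaling on genes that are not members, 12 with RLE scaling, 11 at 10 CPM or more, 6 with no filter, 6 under the replicate block and 4 with the 2 groups fitted alone, while 6 to 10 X-linked members fell in these fits. Over all genes tested 18.2% fell and 16% rose, while 18.8% of autosomal genes rose and 63.7% of X-linked genes fell, so the X-linked members' count of 9 in 14 is near that of the chromosome. The median log2 fold change was -0.23 over X-linked members and -0.52 over all X-linked genes tested, against 0.15 over autosomal members and 0.074 over all autosomal genes tested.

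Among large subunit genes on X, RpL7A fell furthest. RpL7A (X, 6530897 to 6533348, minus strand) had 2031, 1933 and 2097 scaled CPM in mof RNAi males, against 2615, 2398 and 2513 in control males. The groups did not overlap, and the log2 fold change was -0.31 ± 0.065 (SE, adjusted p = 0.00222). RpL36 (X, 628338 to 629483, minus strand) had 1080.3, 1073 and 1229.6 scaled CPM in mof RNAi males, against 1434, 1310.0 and 1376 in control males, again with no overlap (-0.28 ± 0.076, adjusted p = 0.0107). RpL35 (X, 5672401 to 5673547, plus strand), whose protein sits by the exit of the peptide tunnel, had 825, 780.4 and 911 scaled CPM in mof RNAi males, against 1028, 964 and 1054 in control males (-0.28 ± 0.071, adjusted p = 0.00875). In RpL35 too every mof RNAi male lay under every control male. The other large subunit genes on X did not pass: the log2 fold change was -0.12 for RpL37-1, -0.12 for RpL22 and -0.061 for RpL17, with adjusted p of 0.267, 0.211 and 0.578.

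Of the small subunit genes on X, 6 of 8 fell, among them RpS6, RpS19a, RpS15Aa, RpS28b and sta. RpS6 (X, 7899624 to 7901331, minus strand), the ribosomal protein phosphorylated by S6 kinase downstream of TOR, had 1697, 1554 and 1675 scaled CPM in mof RNAi males, against 2096, 1909 and 2040.0 in control males (-0.30 ± 0.068, adjusted p = 0.00429). RpS19a (X, 16637894 to 16639249, plus strand), whose human counterpart is the gene most often mutated in Diamond-Blackfan anemia, had 1015, 994 and 1154 scaled CPM in mof RNAi males, against 1382, 1146 and 1289 in control males (-0.27 ± 0.082, adjusted p = 0.0203). In RpS6 the groups did not overlap, and in RpS19a the highest mof RNAi male lay above the lowest control male. RpS15Aa (X, 13335637 to 13337705, minus strand) fell by 0.23 and RpS28b (X, 9554623 to 9555661, plus strand), which overlaps the coding gene CG15317, by 0.23 on the log2 scale (adjusted p = 0.00846 and 0.0108), neither with overlap between the groups. sta (X, 1481797 to 1483413, minus strand), the fly gene of small subunit protein SA, had 1632, 1636 and 1754 scaled CPM in mof RNAi males, against 2130.1, 1771 and 1961 in control males (-0.22 ± 0.077, adjusted p = 0.0375), and its groups did not overlap. The neighbouring near-copies RpS14a and RpS14b, between which reads cannot be assigned with certainty, had -0.11 and -0.23 (adjusted p = 0.246 and 0.0721).

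The autosomal members that rose were led by relatives of ribosomal proteins that act in assembly. RpLP0-like (2R, 10098518 to 10099590, minus strand), whose yeast counterpart Mrt4 is an assembly factor of the large subunit, had 65.1, 72.8 and 68.2 scaled CPM in mof RNAi males, against 44.8, 50.2 and 44.1 in control males (0.57 ± 0.066, adjusted p = 1.96e-05). RpL24-like (3R, 11430740 to 11431582, minus strand), whose yeast counterpart Rlp24 also acts in assembly of the large subunit, had 164, 156 and 158 scaled CPM in mof RNAi males, against 128, 124 and 125 in control males (0.34 ± 0.051, adjusted p = 0.000184). In both genes every mof RNAi male lay above every control male, and both overlap another coding gene, Jra and Dtd, so with the strand setting of the counting not stated their reads are not certain. RpL34a (3R, 26058420 to 26059267, minus strand) had 247, 245 and 275 scaled CPM in mof RNAi males, against 206, 184 and 213 in control males (0.34 ± 0.073), and RpS15Ab (2R, 10821676 to 10822399, plus strand), the autosomal copy of RpS15Aa, had 65.5, 69.7 and 68.2 scaled CPM in mof RNAi males, against 58.1, 53.4 and 56.7 in control males (0.27 ± 0.062, adjusted p = 0.00255 and 0.004). RpL23, RpL29, RpS26, RpS4 and RpL36A rose by 0.20 to 0.28 on the log2 scale, and of these RpL23, RpL29 and RpL36A also overlap another coding gene. The stalk protein genes RpLP0, RpLP1 and RpLP2 had 0.13, 0.24 and 0.13, and the ubiquitin fusions RpL40 and RpS27A had 0.14 and -0.028, none of them past the test, and RpS27A overlaps Ip259. Of the 70 autosomal members, 21 had every mof RNAi male above every control male and 1 had all below, where 21.9% and 22.4% of all genes did. Of the 14 X-linked members these counts were 0 and 9. The share without overlap was not taken over X-linked genes alone, of which 63.7% fell by the test. The 9 were RpL7A, RpL36, RpL35, RpS6, RpS15Aa, RpS28b and sta, which fell, with RpS14b and RpL22, which did not pass the test.

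The counts of St15 males moved with single libraries. Without control male 2, which carried egg RNA, 5 members rose and 9 fell, and without mof RNAi male 1, which carried it too, 12 rose and 8 fell. Leaving out both gave 5 risen and 8 fallen, and RpS15Aa just missed the threshold (adjusted p = 0.0514). Without mof RNAi male 2, 20 rose and 8 fell, and without control male 4, 6 and 6. RpS19a lost its call without control male 1 or control male 4, and sta without control male 1, control male 4, mof RNAi male 1 or mof RNAi male 2. Of the risen, RpL23 and RpS4 lost theirs without control male 2, control male 4 or mof RNAi male 4, RpS26 without any of these or mof RNAi male 1, and RpL36A without control male 2. RpL7A, RpS6, RpL36, RpL35, RpS15Aa, RpS28b, RpL29, RpLP0-like, RpL24-like, RpL34a and RpS15Ab passed in all 6 fits that left out a single library. Of the 4 late embryo tissue genes, 2 rose in the same males: the glial gene repo averaged 37.6 ± 1.08 scaled CPM in mof RNAi males and 27.5 ± 3.08 in control males (0.45), and the cuticle gene Cpr49Ae 17.1 ± 10.2 in mof RNAi males and 4.99 ± 0.99 in control males (1.77; SD, n = 3 each), while the neuronal gene elav and Mhc did not pass. Their part in the ribosomal protein result was not tested.

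**Figure D2:**
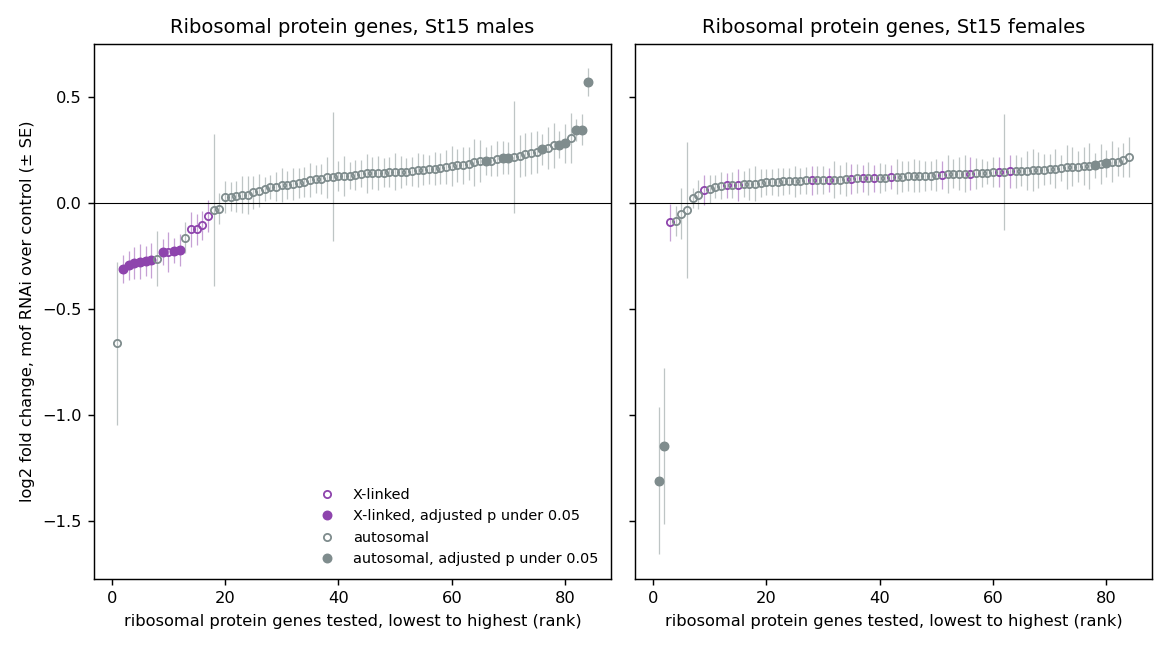
Log2 fold change (mof RNAi over control, ± SE) of the 84 ribosomal protein genes tested at St15, ranked from lowest to highest, in males (left panel) and females (right panel); filled points passed at adjusted p under 0.05. In males the X-linked members (purple) lie between -0.31 and -0.061 and 5 autosomal members are also below 0, the lowest of all being the autosomal RpS10a (-0.66, adjusted p = 0.209), while in females X-linked members lie among the autosomal ones.

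In St15 females the medians of X-linked and autosomal members were close, and 13 of 14 X-linked and 65 of 70 autosomal members had values above 0. Of the 14 X-linked members 0 passed by edgeR and 0 by DESeq2, where 10.6% of X-linked genes rose and 13.7% fell (edgeR). At unadjusted p under 0.05 there was 1 of 14 X-linked members, beside 643 of 1696 X-linked genes. The median log2 fold change of X-linked members was 0.11, close to the 0.13 of autosomal members. RpL7A, for example, had 2852, 2676, 2463 and 2671 scaled CPM in mof RNAi females, against 2542, 2604 and 2412 in control females (0.081 ± 0.061, adjusted p = 0.335), and the groups overlapped. Among autosomal members RpLP0-like rose by 0.19 and RpS15Ab by 0.18 on the log2 scale (adjusted p = 0.0417 and 0.0408). RpL37-2 fell by 1.31 and RpS10a by 1.15, both at few counts: RpL37-2 held 8, 8, 5 and 8 counts in mof RNAi females against 15, 18 and 10 in control females. Of the 84 members 7 had every mof RNAi female above every control female and 2 had all below, where 21% and 18.6% of all genes did. The 2 risen and 2 fallen of 84 compare with 12.7% risen and 13.3% fallen over all genes tested. These calls hung on single libraries: RpLP0-like lost its call without any of the 7, RpS15Ab without any but mof RNAi female 3, RpS10a without any control female or mof RNAi female 2 or 3, and RpL37-2 without control female 3. The number of calls was 1 without any 1 control female or mof RNAi female 2, 2 without mof RNAi female 1 or 4, and 5 without mof RNAi female 3, the female library with Y-linked counts. As in males, repo (0.39) and Cpr49Ae (1.26) rose and elav and Mhc did not pass, and gcl rose (0.39); their part was not tested.

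The sex difference itself was tested with an interaction term, the log2 fold change in males less that in females. It was past the threshold for 10 members: 8 of the 14 X-linked members were lower and RpLP0-like and RpL24-like were higher in the males' response, where 10.2% of all genes were lower, 6.56% were higher and 50% of X-linked genes were lower. Among the X-linked members were RpL36 (-0.43 ± 0.10), RpS6 (-0.41 ± 0.093), RpL35 (-0.41 ± 0.097), RpL7A (-0.39 ± 0.089), RpS19a (-0.36 ± 0.11), RpS15Aa (-0.35 ± 0.082) and RpS28b (-0.33 ± 0.083), with adjusted p of 0.0134, 0.00923, 0.0125, 0.00932, 0.0453, 0.0105 and 0.0149. RpLP0-like differed by 0.38 ± 0.090 and RpL24-like by 0.32 ± 0.070 (adjusted p = 0.0112 and 0.00781). In the 13 fits that left out 1 library, RpL36, RpS6, RpL35, RpL7A, RpS15Aa, RpS28b, RpLP0-like and RpL24-like passed each time and RpS19a in 5.

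Control embryos at St15 differed little between the sexes in these genes. Between control males and control females 1 of 84 members passed, where 1.3% of all genes did and 5.66% of X-linked genes were lower in males. It was RpL22-like, the paralog of RpL22 known for expression in testis, with 68, 83 and 68 counts in control males against 43, 19 and 19 in control females (1.26 ± 0.28, adjusted p = 0.0478), and the call was lost with only the 2 groups fitted and without control female 3 or 4 or any 1 of the 3 control males. X-linked members had a median of -0.044 and autosomal members -0.020 on the log2 scale, males over females.

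A ratio within each library, which needs no scaling between libraries, was taken beside these tests. The summed counts of X-linked members over those of autosomal members, on the log2 scale, were -2.70, -2.71 and -2.75 in St15 mof RNAi males and -2.36, -2.36 and -2.35 in St15 control males. The groups did not overlap and differed by -0.36, or -22.3% as a ratio. All genes that are not members differed by -0.45 (-26.7%). In St15 females the members' ratio was -2.34, -2.31, -2.33 and -2.33 with mof RNAi and -2.30, -2.33 and -2.30 in controls, which overlapped. Control males lay just below control females at St15, with a difference of -0.044 and no overlap, but without members that overlap another gene the difference turned to 0.0156.

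**Figure D3:**
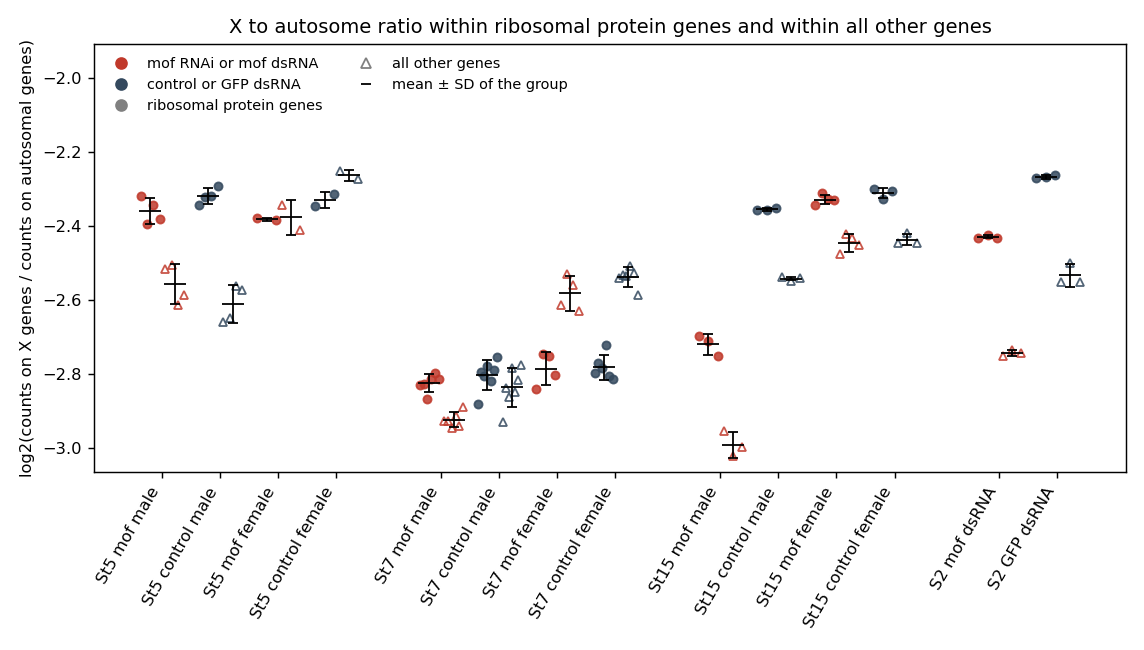
Log2 ratio of counts on X-linked genes to counts on autosomal genes in each library, for ribosomal protein genes (filled circles) and for all other genes (open triangles), by group with mof RNAi or mof dsRNA left of its control; bars are the mean ± SD. St15 mof RNAi males (-2.72 ± 0.028 for ribosomal protein genes) lie below St15 control males (-2.35 ± 0.0038), and at St7 the members' ratio is within overlapping ranges in all groups while the other genes' ratio is lower in males.

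S2 cells, a line with male-type dosage compensation, showed the same order of X-linked and autosomal members with smaller differences. The ratio of X-linked to autosomal members was -2.43, -2.42 and -2.43 in libraries labelled mof dsRNA and -2.27, -2.27 and -2.26 in those labelled GFP dsRNA, with no overlap and a difference of -10.6%, beside -13.5% for genes that are not members. Gene by gene, 0 of 14 X-linked members passed by edgeR and 1 by DESeq2, where 37% of all X-linked genes fell (edgeR). At unadjusted p under 0.05 there were 4 of 14 X-linked members, beside 825 of 1593 X-linked genes. The log2 fold changes of X-linked members ran from -0.15 (RpS19a) to 0.15 (RpL22), with a median of -0.10 against 0.078 for autosomal members. RpS19a had 817, 757 and 746 scaled CPM in libraries labelled mof dsRNA, against 878, 828 and 871 in those labelled GFP dsRNA (adjusted p = 0.0526). In RpS19a, RpS15Aa and RpS28b every library labelled mof dsRNA lay below every one labelled GFP dsRNA, a separation held by 21.2% of all genes. Of 67 autosomal members tested 4 rose, where 10.2% of all genes and 11.7% of autosomal genes rose. RpLP0-like had 64.7, 65.2 and 67.4 scaled CPM in libraries labelled mof dsRNA, against 53.0, 53.8 and 55.1 in those labelled GFP dsRNA (0.29 ± 0.045, adjusted p = 0.00123). RpS15Ab rose by 0.24, RpL24-like by 0.22 and RpL15 by 0.18 (adjusted p = 0.00584, 0.017 and 0.0249). Without GFP library 2, 4 rose and the X-linked RpL7A, RpS19a and RpS28b fell, and without mof library 1, 2 rose and the X-linked RpS19a and RpL36 fell. Without mof library 2 there were 2 calls and without mof library 3 there were 8. RpL24-like lost its call without mof library 1 or 2, and RpL15 without either of these or GFP library 3.

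**Figure D4:**
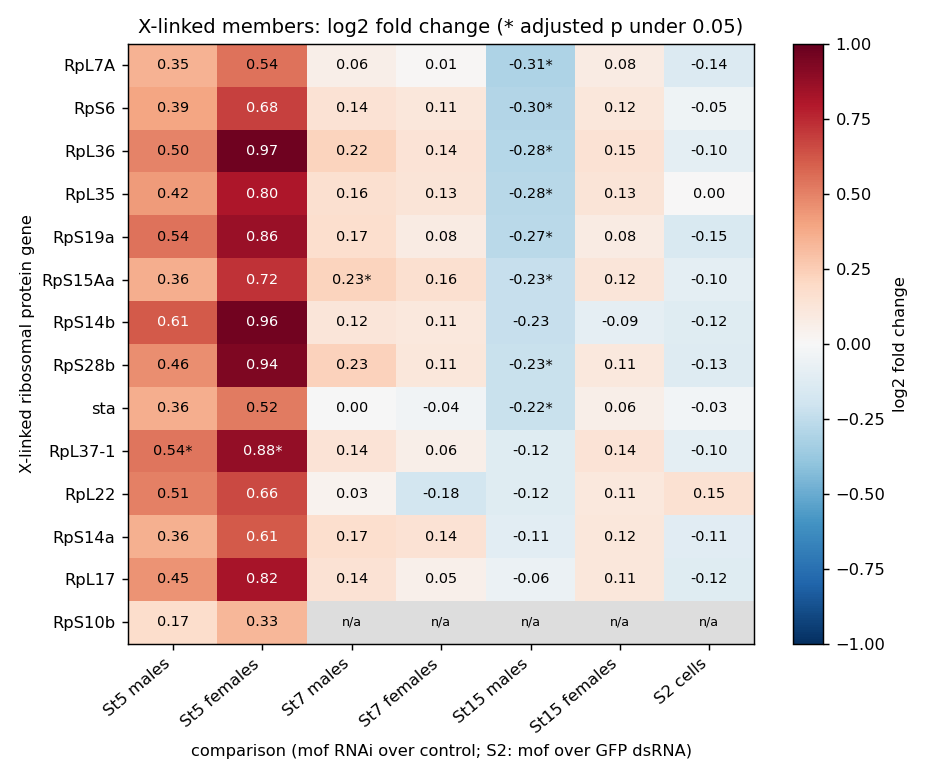
Log2 fold change of 14 X-linked ribosomal protein genes (rows) in the 7 comparisons of mof RNAi or mof dsRNA with its control (columns), with the S2 column for libraries labelled mof dsRNA; stars mark adjusted p under 0.05, and n/a marks RpS10b where it was not analysed. The column of St15 males is below 0 in every row with a value, from -0.31 to -0.061, and both St5 columns are above 0 in every row.

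At St7 few members passed the test, and the medians of X-linked and autosomal members were close. In males 7 of 82 members rose and 1 fell, beside 9.93% and 15.3% of all genes tested. At unadjusted p under 0.05 there were 31 of 82 members, beside 3288 of all 8717 genes tested. The median log2 fold change was 0.14 over X-linked members and 0.16 over autosomal members, while over all X-linked genes it was -0.15, and 19.7% of these fell. RpL29, a small basic protein of the large subunit, and one that overlaps CG9752, had 281 to 416 (median 335) scaled CPM in 6 mof RNAi males and 229.8 to 305 (median 262) in 7 control males (0.37 ± 0.094, adjusted p = 0.00633). The ranges overlapped. For 0 of 82 members did all mof RNAi males lie above, or all below, the control males, where 1.81% and 4.68% of all genes did. RpL38, RpL37A, RpL27, RpL15, RpS20 and, on X, RpS15Aa rose by 0.22 to 0.31; RpS15Aa had 612 to 743 (median 653) in mof RNAi males and 465 to 633 (median 614) in control males (adjusted p = 0.0464). Of these, RpL27 overlaps the coding gene Idh3g and RpS20 overlaps CG17272. RpL29 and RpL27 passed in each of the 13 fits that left out a library, RpL37A in 12, RpL38 in 9, RpL15 in 8, and RpS20 and RpS15Aa in 6 each. RpL37A lost its call without mof RNAi male 2, RpL38 without mof RNAi male 1, 2 or 3 or control male 5, and RpL15 without any of these or control male 2. RpS20 lost it without mof RNAi male 1, 2 or 3 or control male 2, 3, 4 or 5, and RpS15Aa without mof RNAi male 1, 2, 3 or 6 or control male 3, 4 or 5. The number of calls moved with single libraries too: it was 34 without control male 7, 30 without mof RNAi male 4, 25 without control male 1, 24 without mof RNAi male 5 and 19 without control male 6. It was 3 without mof RNAi male 2 and 4 without mof RNAi male 1, mof RNAi male 3 or control male 5.

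The member that fell in both sexes at St7 was RpS19b, the autosomal paralog of RpS19a known for expression in the germ line. It held 10 to 22 counts per library in mof RNAi males and 18 to 38 in control males (-0.76 ± 0.23, adjusted p = 0.0182), and 7 to 12 in mof RNAi females and 22 to 48 in control females (-1.31 ± 0.28, adjusted p = 0.00166). The female groups did not overlap, a separation below controls held by 12.7% of all genes, and the male groups did. In females it was the 1 call of 82, beside 16.8% of all genes that fell and 11% that rose, and without mof RNAi female 2 there were 5. The pole cell and germline genes pgc and aub fell as well in St7 females (-0.67 and -0.79), pgc also in males (-0.59), and their part in the RpS19b result was not tested. The sex difference of the mof effect was past the threshold for 0 members at St7, with 0 by DESeq2 and 0% of all genes called (edgeR). At unadjusted p under 0.05 there were 0 of 82 members, beside 318 of all 8717 genes tested.

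Between St7 control males and control females, the X-linked members did not show the lower level that the rest of the chromosome showed in males. No member passed the adjusted threshold of 0.05 by edgeR (0 of 82) or DESeq2 (0), where 6.22% of all genes passed and 30.8% of X-linked genes were lower in males. At unadjusted p under 0.05 there were 0 of 82 members, beside 1295 of all 8717 genes tested (edgeR). The median log2 fold change, male over female, was 0.0028 over X-linked members and -0.40 over all X-linked genes. The X-linked members ran from -0.19 to 0.13. Within libraries the log2 ratio of X-linked to autosomal members was -2.80 ± 0.040 in control males and -2.78 ± 0.034 in control females, which overlapped, whereas for all other genes it was -2.84 ± 0.052 and -2.54 ± 0.026, which did not. How much of these mRNAs was laid down by the mother and how much was made by the embryo was not measured.

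At St5 nearly all ribosomal protein genes differed between the control groups labelled male and female. Of the sexing genes, msl-2 was higher in these males (6.09). Sxl, lower in control males at St7 (-1.94), did not pass at St5 (0.80, adjusted p = 0.43, edgeR quasi-likelihood test). The 2 control females held 6 and 40 counts on Y-linked genes and the control males 198 to 356. Of 89 members, 86 were higher in control males than in control females, where 34.5% of all genes were higher and 27.5% lower (edgeR). For 87 members all 4 control males lay above both control females, where 39% of all genes did. All 15 X-linked members were among them, where 22.5% of X-linked genes were higher. The exceptions were RpL22-like, RpL10Aa and RpS19b, all at few counts. Members with at least 10 CPM differed by 0.80 (RpL23A) to 1.25 (RpL39) on the log2 scale, a narrow range, with medians of 1.07 over X-linked and 1.06 over autosomal members and 0.32 over all genes. RpL23A overlaps the coding gene CG7974 and RpL39 overlaps RpL12. RpS6 had 3431, 2873, 4012 and 2255 scaled CPM in control males, against 1490.5 and 1623 in control females (1.01 ± 0.21, adjusted p = 0.00132). RpLP0, the core of the stalk, had 3864, 2928, 4123 and 2272 in control males, against 1789 and 1925 in control females (0.83 ± 0.22, adjusted p = 0.00608). RpL40, a ubiquitin fusion, had 2231, 1767, 2524 and 1323 in control males, against 868 and 1009.6 in control females (1.06 ± 0.22). In these 3 genes the sexes did not overlap. Within libraries the log2 ratio of X-linked to autosomal members was -2.32 ± 0.021 in control males and -2.33 ± 0.021 in control females, which overlapped, whereas for all other genes it was -2.61 ± 0.050 in control males and -2.26 ± 0.016 in control females, which did not.

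The St5 sexes also differed in stage markers. The egg RNAs bcd, gcl and swa were all lower in control males than in control females (-5.06, -4.12 and -5.26), and all 5 blastoderm patterning genes tested were higher, with twi at 4.46 and Kr at 4.12. bcd averaged 6.65 ± 6.44 scaled CPM in 4 control males and 222 ± 4.84 in 2 control females, and Kr averaged 226 ± 45.1 in control males and 13.1 ± 2.18 in control females. Their part in the ribosomal protein result was not tested, and with these libraries sex and developmental age cannot be told apart. The median of all genes in this comparison moved with the fit, by 0.13 with RLE scaling, 0.31 with no filter, 0.48 with DESeq2 and -0.33 at 10 CPM or more, to -0.0088. The median of X-linked members was 1.20, 1.03, 1.20 and 1.28 in these fits, and 86, 86, 88 and 85 members were called.

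mof RNAi embryos at St5 had positive median log2 fold changes of ribosomal protein genes in both sexes, on X and autosomes alike, with few single genes past the test. In females 85 of 89 members, all 15 X-linked ones included, had both mof RNAi libraries above both controls, where 30% of all genes did. The median log2 fold change was 0.78 over X-linked and 0.79 over autosomal members, and 0 over all genes. Within libraries the log2 ratio of X-linked to autosomal members differed by -0.052, with no overlap, and by 0.12 without members that overlap another gene. For all other genes it differed by -0.11, also with no overlap. With 2 libraries a group, 3 members passed, beside 2.24% of all genes: RpL37-1 on X, RpL15 and RpS3A. RpL37-1 had 1693 and 2180.4 scaled CPM in mof RNAi females, against 993 and 1117 in control females (0.88 ± 0.22, adjusted p = 0.0472). RpL15 rose by 0.87 and RpS3A by 0.74 (adjusted p = 0.0368 and 0.0479). At unadjusted p under 0.05 there were 79 of 89 members, beside 1812 of all 9103 genes tested. A fit of these 2 groups alone called 79 members and DESeq2 39, and shares over all genes are not given for these 2 fits. Without control female 1 or 2 there were 0 calls and without mof RNAi female 1 or 2 there was 1. The patterning genes Kr and twi were higher as well in mof RNAi females (1.81 and 1.44), while bcd, gcl and swa did not pass, and the part of developmental age was not tested.

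In St5 males 5 of 89 members rose, where 6.51% of all genes rose and 7.33% fell, so their share is near the background. For 26 members all mof RNAi males lay above all control males and for 1 all lay below, where 9.47% and 9.25% of all genes did. The 5 that rose were RpL35A (0.59 ± 0.17), RpL28 (0.56 ± 0.17), RpL37-1 (0.54 ± 0.16), RpL3 (0.51 ± 0.13) and RpS3A (0.45 ± 0.13), with adjusted p from 0.0239 to 0.0483. RpL28 overlaps the coding gene nSMase. RpL3, which lies next to the site of peptide bond formation, had 5153, 4969.6, 5152 and 4859 scaled CPM in mof RNAi males, against 3794, 3459, 4135 and 2709 in control males. RpL37-1 had 3437, 3314, 3282 and 3027 in mof RNAi males, against 2469.7, 2113, 2788 and 1623 in control males. In both genes the groups did not overlap. The median was 0.45 over X-linked and 0.45 over autosomal members. At unadjusted p under 0.05 there were 69 of 89 members, beside 2856 of all 9103 genes tested. Within libraries the log2 ratio of X-linked to autosomal members differed by -0.040, with overlap, and by 0.0302 without members that overlap another gene. For all other genes it differed by 0.055, also with overlap. Without mof RNAi males 1 and 2, the males with next to no Y-linked counts, 0 members passed. The medians in that fit were 0.41 over X-linked and 0.40 over autosomal members. Of the egg RNAs gcl was higher in mof RNAi males, at 35.3 ± 10.1 scaled CPM against 14.9 ± 3.40 in control males (1.24; SD, n = 4 each), and of the pole cell and germline genes aub was higher (0.69), while bcd, swa, pgc, vas and the 5 blastoderm patterning genes did not pass. Their part in the ribosomal protein result was not tested. The number of calls was 0 without control male 2, mof RNAi male 1 or mof RNAi male 2, 1 without control male 1, control male 4, mof RNAi male 3 or mof RNAi male 4, and 76 without control male 3. The sex difference of the effect was past the threshold for 0 members by edgeR and 0 by DESeq2, beside 0.121% of all genes (edgeR). At unadjusted p under 0.05 there was 1 of 89 members, beside 1285 of all 9103 genes tested.

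Several ribosomal proteins are encoded by a pair of genes, and the members of a pair were used unequally. In 4 pairs split between X and an autosome the copy on X held the higher level. RpS19a had 1015 scaled CPM per kb in St15 control males and RpS19b 2.11. RpL22 had 932 and RpL22-like 2.61. RpL37-1 had 1067 and RpL37-2 1.33. RpS15Aa had 1369 and RpS15Ab 77.5. Pairs with both copies on autosomes gave 324 for RpL34a and 893 for RpL34b, 838 for RpL24 and 162 for RpL24-like, 1267 for RpLP0 and 48.9 for RpLP0-like, and 2028 for RpL10Ab, with RpL10Aa at 0, 0 and 0 counts in the 3 libraries. The neighbours RpS14a and RpS14b stood at 696 and 193. RpS28b on X had 1069, where RpS28a and RpS28-like were below the filter. RpL24 and RpL10Ab overlap other coding genes. In St15 mof RNAi males the log2 fold change was -0.23 for RpS15Aa and 0.27 for RpS15Ab, -0.27 for RpS19a and 0.12 for RpS19b (adjusted p = 0.795), and -0.12 for RpL22 and 0.22 for RpL22-like (adjusted p = 0.572), so among these autosomal copies RpS15Ab was the one that rose.

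**Figure D5:**
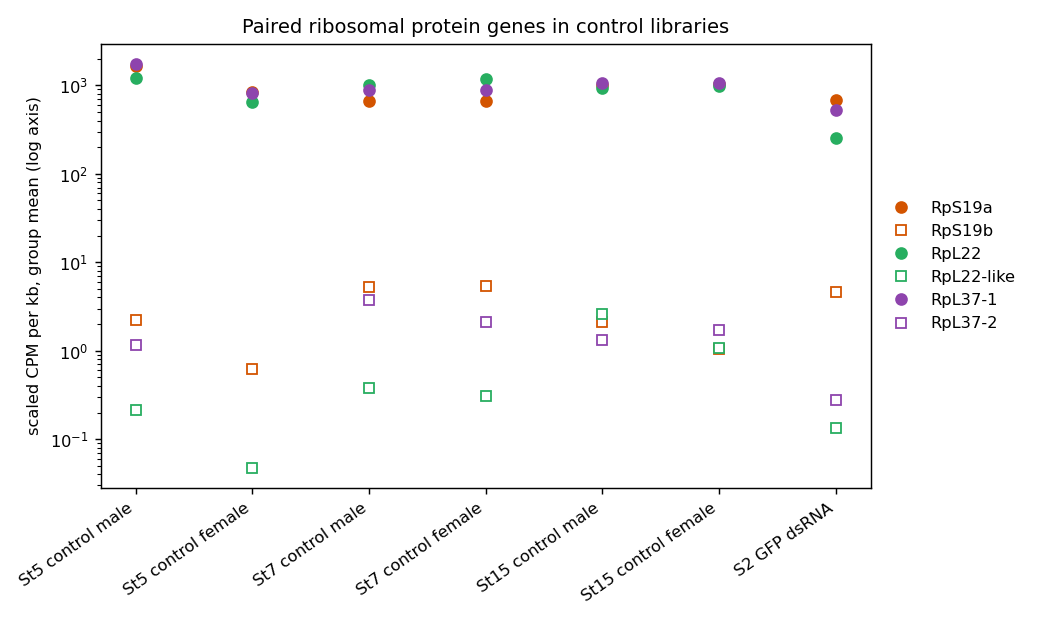
Mean scaled CPM per kb of exon (log axis) of 3 pairs of ribosomal protein genes in control embryos and GFP dsRNA S2 cells; filled circles are the first and open squares the second gene of a pair, colours mark pairs, and a mean of 0 has no point. RpS19a, RpL22 and RpL37-1, the copies on X, lie above their partners throughout, for RpS19a and RpS19b at 1015 and 2.11 in St15 control males.

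Genes that build and run ribosomes were read beside the ribosomal proteins themselves. Ribosome assembly and RNA polymerase I genes rose and fell in St15 males by chromosome: 24 of 26 tested rose, each autosomal, and 2 fell, where 16% of all genes rose and 18.2% fell, with a median log2 fold change of 0.51 against 0.13 over members and 0.021 over all genes. Among the risen were l(3)72Dn (0.78), Non3 (0.77), Mat89Ba (0.66) and RIOK1, a kinase of small subunit maturation (0.66), and the 2 that fell, bys (-0.28) and Nmd3, the export adaptor of the large subunit (-0.24), are on X. Mat89Ba and RIOK1 lost the call without control male 1, control male 4 or mof RNAi male 1, Nmd3 without control male 1 or mof RNAi male 1, and bys without control male 2 or mof RNAi male 4. In S2 cells 23 of 26 rose (median 0.26), where 10.2% of all genes did, with wcd at 0.34. St15 females had 6 risen of 26, where 12.7% of all genes rose, and the interaction term was positive and past the threshold for 14 and negative for 2, where it was positive for 6.56% and negative for 10.2% of all genes. St7 males had 4 risen and 1 fallen of 26, beside 9.93% and 15.3% of all genes, and St7 females 1 and 1, beside 11% and 16.8%. St5 males had 2 risen and 1 fallen of 27, beside 6.51% and 7.33%, and St5 females 1 risen, beside 2.24%. St5 control males against control females had 12 higher and 3 lower of 27, where 34.5% of all genes were higher and 27.5% lower, so the higher count is not far from the background.

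Initiation factor genes in St15 males fell on X and rose on autosomes. All 4 on X fell, namely eIF5 (-0.70), eIF4H1 (-0.63), eIF2alpha (-0.56) and eIF3g1 (-0.51), and 16 of 24 autosomal ones rose, led by eIF6, which keeps the subunits apart until the large one is mature (0.82), where 63.7% of X-linked genes fell and 18.8% of autosomal genes rose. The 4 on X were also lower by the interaction term, eIF4H1 not without control female 3. In S2 cells 12 of 28 rose and 2 fell, the 2 being eIF4H1 (-0.48) and eIF5 (-0.22), both on X, where 10.2% of all genes rose and 37% of X-linked genes fell. eIF5 lost that call without the library labelled mof dsRNA 1 or 2, and eIF4H1 without any GFP dsRNA library or the library labelled mof dsRNA 2. Of the 28, St15 females had 2 risen, St7 males 8, St7 females 5 and St5 males 2, beside 12.7%, 9.93%, 11% and 6.51% of all genes. Elongation factor genes, all autosomal, had 3 risen of 6 in St15 males, eEF1delta (0.36), eEF1gamma (0.26) and eEF2 (0.17), where 18.8% of autosomal genes rose. In S2 cells eEF1delta rose (0.21), 1 of 6, where 11.7% of autosomal genes rose. In each of St15 females, St7 males and St7 females 0 of 6 rose and 1 fell, beside 13.3%, 15.3% and 16.8% of all genes that fell. eEF2 lost its call without control male 4, and eEF1delta in S2 cells without the library labelled mof dsRNA 2. Between St5 control sexes 7 of 8 elongation and 16 of 28 initiation factor genes were higher in males, with 4 initiation factor genes lower, where 34.5% of all genes were higher and 27.5% lower.

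Of the regulators of ribosomal protein synthesis, Xrp1, a transcription factor known for its response to ribosomal protein mutations, rose in both sexes at St15 (0.74 in males, 0.43 in females) and fell in both at St5 (-2.58 in males, -5.04 in females). Trf2, a TBP-related factor used at promoters of ribosomal protein genes, fell in St15 males (-0.38) and in S2 cells (-0.26), and raptor, the TOR complex subunit, fell in St15 males (-0.24). Both lie on X. Trf2 lost the S2 call without the library labelled mof dsRNA 1 or 2, and raptor its call without control male 4. Dref, a promoter-binding factor of growth genes, rose in St15 males (0.22) and in S2 cells (0.14), as did Max (0.19 and 0.22), the partner of Myc. In St15 males Dref lost its call without control male 1, control male 4 or mof RNAi male 1, and Max without control male 1 or mof RNAi male 2. In S2 cells Dref kept its call only without GFP library 2, and Max only without GFP library 2 or mof library 1. Of the list's 14 genes 3 rose and 2 fell of 13 tested in St15 males, and 1 rose and 1 fell in St15 females, counts near the 16% risen and 18.2% fallen of all genes in males and not above the 12.7% and 13.3% in females.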

How the data were processed

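PolyA RNA was prepared with the TruSeq Stranded mRNA kit, per the labels' protocols, but no source says if the strand was used in counting. The deposited files are counts per gene and library made by the authors, 1 table per stage and 1 for S2 cells, on genome build dm6 per the submitters' processing notes; the aligner and counting program: not given in the sources used here. Symbols and identifiers were matched to Ensembl release 115. Each table was fitted alone and whole with edgeR 4.0.16 in R 4.3.3: robust quasi-likelihood fits with a mean for each group, after TMM scaling and filterByExpr, and Benjamini-Hochberg adjustment over all genes tested, with a threshold of 0.05. Errors of log2 fold changes are standard errors; scaled CPM use the TMM-scaled library size. The script was tested on simulated data with changes at a fold of 2. Of changed genes, 75.5% were recovered for St15 males, 79.0% for St7 males, 23.0% for St5 males and 90.0% for S2 cells. False calls were 5.63, 2.47, 2.13 and 8.63% of all calls, in that order. Smaller changes were not simulated. No p-value was computed for the members as a set. Named are X-linked members, paralog pairs, stalk and ubiquitin fusion genes, the up to 5 risen and 5 fallen members per comparison by size, and up to 4 genes a direction per list; RpL29, RpS26, RpS4, RpL36A, RpS20, RpL41, RpL23A and RpL39, which complete a count or range, were named after their values were seen. Members, lists and rules were chosen with earlier results of these data known. Alternatives were DESeq2 1.42.0, other scaling and filters, a replicate block, fits of 2 groups and leaving out libraries. Leaving out St15 control male 2 and mof RNAi male 1 together was chosen after seeing the data. Replicate numbers were not taken as pairing, because correlations of the deviations of same-numbered libraries were not all above 0.1: they ran from -0.30 to 0.23 at St5, -0.41 to 0.34 at St7, -0.49 to 0.20 at St15 and -0.089 to 0.16 in S2 cells. No 2 libraries of a group agreed within sampling noise. A pair of paralogs is counted among the members but not reported here by name. Sequences were not used here.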

Additional observations from a re-analysis of the deposited data

Results flagged for a closer look

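In a search for outliers 107 sets of values, each from a group of 4 to 7 libraries, were examined, most of them levels of X-linked members. In 9 of the 107, all of them levels of X-linked members, 1 library stood far from the rest of its group. Chance alone flags about 1 in 20 independent sets, but sets that share libraries are not independent. St5 mof RNAi male 4 was low for RpL35 (2329.8 scaled CPM) and RpL36 (3232). St7 mof RNAi female 2 was low for RpL17 (436), RpL37-1 (1029), RpS14b (67.4) and RpS15Aa (514). St7 control female 5 stood apart for RpL7A (940.2), St7 mof RNAi male 3 for RpL22 (660.5) and St15 mof RNAi female 3 for RpL22 (1024).

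At St15 the mof effect differed between males and females for 10 members, these among them, by the interaction term of edgeR (male less female log2 fold change, adjusted p under 0.05): RpL36 (-0.43), RpS6 (-0.41), RpL35 (-0.41), RpL7A (-0.39), RpS19a (-0.36), RpS15Aa (-0.35), RpS28b (-0.33), RpL24-like (0.32) and RpLP0-like (0.38). Over all genes 10.2% were negative and 6.56% positive past the threshold.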

How the results depend on the processing

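The number of members called changed by more than 1.5 times in these fits. In St5 males it was 11 with DESeq2, 10 with no filter, 1 at 10 CPM or more, 1 in the 2 groups alone and 0 without mof RNAi males 1 and 2, and 0 to 76 with 1 library left out. In St5 females it was 39, 11, 9 and 79 in the first 4 of those, and 0 to 1 with 1 library left out. In St7 males it was 17 with DESeq2, 15 with RLE scaling, 19 with TMM on other genes, 5 with no filter, 3 at 10 CPM or more, 25 under the replicate block, 4 in the 2 groups alone and 3 to 34 with 1 library left out; in St7 females 0 at 10 CPM or more and 1 to 5 with 1 left out. In St15 males it was 10 in the 2 groups alone (4 risen, 6 fallen) and 12 to 28 with 1 left out. In St15 females it was 1 at 10 CPM or more, 2 with TMM on other genes, the replicate block or no filter, and 1 to 5 with 1 left out. In St15 controls it was 0 with the replicate block, in the 2 groups alone or at 10 CPM or more, and 0 to 1 with 1 left out. In S2 cells it was 11 with DESeq2, 9 with no filter and 2 to 8 with 1 left out. The cause was not tested; a fit of 2 groups holds fewer samples. The replicate numbers do not pair the libraries. The difference in log2 ratio of X-linked to autosomal members was, with equal weight per gene, -0.00995 in St5 males, -0.0203 in St5 females and -0.0238 in St15 controls; without paralogs -0.0796 in St5 females, -0.39 in St15 males and -0.15 in S2 cells; and without members that overlap another gene 0.0302 in St5 males, 0.12 in St5 females, 0.0954 in St5 controls, 0.0367 in St7 males, 0.0496 in St7 females, 0.0156 in St15 controls and -0.19 in S2 cells. In St15 males and S2 cells it stayed below 0 in every alternative run. Of single genes, 3066 fits of a named gene kept its direction and side of the threshold, 447 lost and 17 gained the call, and 8 turned the sign. RpL35 and sta in S2 cells had values near 0: RpL35 was -0.00665 at 10 CPM or more, -0.00322 with no filter and -0.0498 to 0.0434 with 1 library left out, where sta was -0.0882 to 0.0409. Sxl in St5 males, called as risen with all libraries (2.43, adjusted p = 0.0428), was -0.065 without mof RNAi males 1 and 2 and 1.85 to 2.78 with 1 library left out. Depth limits the members with few counts, most of all in the single embryos of St7.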
